A study of Mus musculus with 8 samples.

Results

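The 7 genes described here, Ly6a, Ly6c1, Ly6c2, Ly6d, Ly6e, Ly6g and Ly6i, encode mouse Ly6 surface proteins. They were chosen by gene symbol, with earlier results of these data known, and each matched 1 row of a table of 38392 genes. The table came from RNA-seq of eosinophils sorted from the bone marrow (BM) and the small intestine (SI), with 4 libraries per tissue. All mice were wildtype, on the C57/BL6 strain, with no treatment named, and by the study's account female, and cells went to RNA isolation directly after sorting. The labels give no age, and the methods give only a range of weeks for all mice of the study. The comparison asks how eosinophils of the intestinal wall differ from eosinophils at their site of production.

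Ly6 proteins are small, cysteine-rich proteins with a 3-finger fold, and most are held on the cell surface by a glycosylphosphatidylinositol (GPI) lipid anchor. Immunologists know them chiefly as antigens that tell blood cell types apart: Ly6C marks monocytes and other myeloid cells, Ly6G marks neutrophils, and Ly6A, also called Sca-1, marks blood stem cells. Several of the genes are induced by interferon.

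Members of this family were themselves used in the sort, and in a single tissue. BM eosinophils were gated as CD11b+, Ly6G-, Ly6C-, SiglecF+ cells of high side scatter, so cells stained for Ly6G or Ly6C protein were discarded. SI eosinophils were gated as CD11b+, MHC-II-, SiglecF+ cells of high side scatter, with no Ly6 antigen in the gate. SI tissue was also stripped of its epithelium, digested with collagenase in the warm and enriched on CD11b beads, whereas BM was flushed and its red cells lysed. Tissue, gate and handling changed together and cannot be told apart. In sorted bulk RNA, fewer cells of a type and less RNA per cell cannot be told apart either.

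Ly6c1 and Ly6c2 are near-identical copies, and the beginnings of their coding sequences are shown because reads from the 2 genes can be confused. The lines give the first 150 coding bases of each gene, 5′ to 3′, from GENCODE M21 transcripts on GRCm38, with the 6 positions at which the copies differ in capitals. The Ly6c1 stretch lies in 2 coding exons at chr15:75047390-75048511 on the minus strand, and the Ly6c2 stretch in 2 coding exons at chr15:75110548-75111667 on the same strand.
Ly6c1: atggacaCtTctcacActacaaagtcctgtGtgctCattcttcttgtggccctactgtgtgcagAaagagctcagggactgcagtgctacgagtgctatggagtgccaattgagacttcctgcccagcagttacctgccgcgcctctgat
Ly6c2: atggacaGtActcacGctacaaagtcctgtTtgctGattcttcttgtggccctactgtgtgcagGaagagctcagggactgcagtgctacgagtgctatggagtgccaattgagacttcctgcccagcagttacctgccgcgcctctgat
Over the whole coding sequence, 384 of 393 bases were the same, an identity of 97.7%. The other members were less alike: Ly6a and Ly6i shared 86.3% of aligned coding positions, Ly6a and Ly6g 83.1%, and Ly6a and Ly6d 45.6%. Of all 75-base windows in the annotated transcripts of Ly6c1, 75 bases being the shortest read length that the labels allow, 19.0% also occurred in Ly6c2 or Ly6a. For Ly6c2 this share was 9.46%, for Ly6a 6.33% and for Ly6i 0.519%, and it was 0 for Ly6d, Ly6e and Ly6g. How reads that match several genes were treated is not given in the sources used here, so the values of Ly6c1, and less so of Ly6c2, Ly6a and Ly6i, are uncertain.

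Ly6c1, Ly6c2 and Ly6g follow each other along the chromosome among the 7 members, and the bases just before each gene are shown. The lines give the 160 bases upstream of the outermost GENCODE M21 start of each gene, 5′ to 3′ on the strand of the gene, from RefSeq on GRCm38.p6. They are chr15:75048831-75048990 (minus strand) for Ly6c1, chr15:75111971-75112130 (minus strand) for Ly6c2 and chr15:75155080-75155239 (plus strand) for Ly6g. Capitals mark GAGGAAGT, a motif of the kind bound by the myeloid factor PU.1.
Ly6c1: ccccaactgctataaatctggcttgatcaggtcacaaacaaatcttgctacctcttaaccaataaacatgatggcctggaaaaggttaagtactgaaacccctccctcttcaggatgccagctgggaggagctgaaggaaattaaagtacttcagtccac
Ly6c2: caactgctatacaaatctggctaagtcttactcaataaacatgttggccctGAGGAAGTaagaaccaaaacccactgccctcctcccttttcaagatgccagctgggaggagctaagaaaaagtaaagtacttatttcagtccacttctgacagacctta
Ly6g: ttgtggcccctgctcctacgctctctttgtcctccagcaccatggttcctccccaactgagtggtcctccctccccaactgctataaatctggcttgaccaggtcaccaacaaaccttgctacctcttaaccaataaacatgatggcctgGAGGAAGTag
The motif, searched on both strands, was found 1 time before Ly6c2, 1 time before Ly6g and 0 times before Ly6c1. It occurred in 1.70% of 32481 distinct upstream stretches of the same length. Those stretches were cut at a fixed position of every promoter entry, not at the outermost GENCODE start used for the 3 genes. The last base of the motif lay 102 bases before the start of Ly6c2 and 3 bases before that of Ly6g. TTCNNNGAA, the site of STAT factors, and GAAANNGAA, the core of the interferon-stimulated response element, were found in none of the 3 stretches and in 4.37% and 4.28% of all stretches. The best local alignment of the Ly6c1 and Ly6g stretches had an identity of 96.2% over 80 columns. That of Ly6c1 and Ly6c2 had 74.3% over 136 columns, and that of Ly6c2 and Ly6g 82.0% over 50 columns. The stretches thus resemble each other, and the matches before Ly6c2 and Ly6g need not be independent. Sequences upstream of Ly6a, Ly6d, Ly6e and Ly6i are not shown. The part of these motifs in the tissue differences was not tested.

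Libraries held between 11508002 and 21289164 reads in genes. Levels are given as normalised counts, that is, reads divided by the size factor of the library, with the mean ± SD (n = 4 each). Differences are SI minus BM on the deposited variance-stabilised scale, which is log2-like and close to log2 for abundant genes but compressed for genes with few reads. They carry limma's standard error (SE) and a p-value adjusted by the Benjamini-Hochberg method over all 38392 genes, and a gene was called at an adjusted p under 0.05. By the study's account the libraries of a tissue came from different mice. The labels number the samples F1 to F4 in BM and F5 to F8 in SI, with no number in common, and do not say in words what the numbers count.

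The markers of the sorted cells were read alongside. Siglecf, the surface receptor used in both gates, was at 580 ± 66.0 normalised counts in BM and 3076 ± 516 in SI. The 10 eosinophil markers took 0.0211% to 0.0373% of the reads in BM libraries and 0.215% to 0.268% in SI libraries. They did not move as a set: 4 were called higher in SI (Siglecf, Ccr3, Il5ra and Alox15) and 5 lower (Epx, Prg2, Prg3, Ear1 and Ear2, which encode granule proteins), with a median difference of -1.85. The 12 neutrophil precursor markers took 2.99% to 3.43% in BM and 0.00702% to 0.00771% in SI, and 11 of them were called lower and 1 higher in SI. Among all genes averaging 10 or more reads, 28.6% were called lower and 34.6% higher. Mpo, the myeloperoxidase of neutrophil granules, was at 149860 ± 19352 in BM and at 164.5 ± 26.1 in SI. By these lists the reads of the BM libraries came more from neutrophil precursor genes than from eosinophil genes, which goes against the label, and each value below that falls in SI was measured beside that difference. No marker of any of the 9 cell type lists was at 0 reads throughout a tissue.

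Of the 7 Ly6 genes, 3 were called lower in SI (Ly6c2, Ly6g and Ly6d), 2 were called higher (Ly6a and Ly6i) and 2 were not called (Ly6e and Ly6c1). Among all genes tested, 12.9% were called lower and 22.0% higher, so that 63.2% of calls were higher. With each library centred on its median the share of higher calls was 29.5%, and with quantile normalisation 45.8%. In 3 of the 7 genes every SI library lay below every BM library, and in 1, Ly6i, every SI library lay above; these patterns held for 13.9% and 20.3% of all genes. The median difference of the 7 genes was 0.02, beside 0.37 over all genes. All 7 averaged 10 or more reads per library, as did 16215 genes in all, whose median difference was 0.12. Of these better-covered genes, 28.6% were called lower and 34.6% higher, beside 42.9% and 28.6% of the 7.

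**Figure D1:**
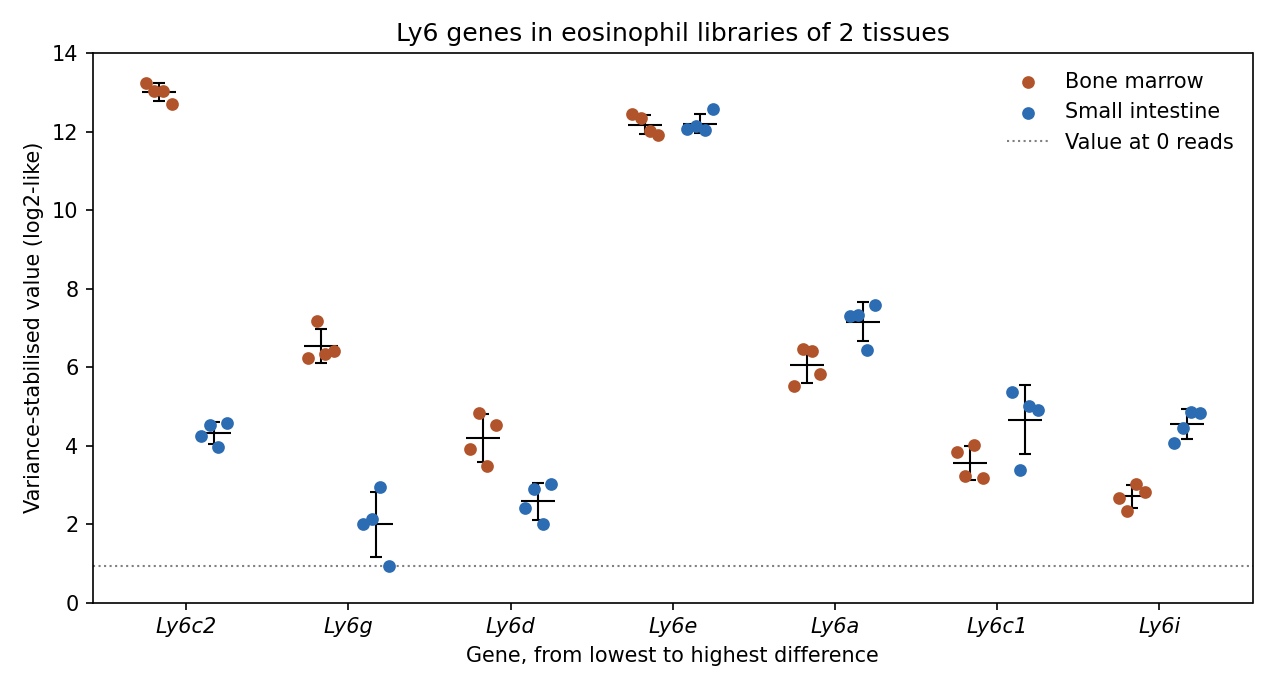
Deposited variance-stabilised value (log2-like, y axis) of each of the 7 Ly6 genes (x axis) in 4 BM libraries (orange points) and 4 SI libraries (blue points). Black bars are means and SDs, and the dotted line is the value of a gene with 0 reads. Ly6c2, Ly6g and Ly6d stand lower in every SI library, Ly6i stands higher, and Ly6e, Ly6a and Ly6c1 overlap.

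Ly6c2 (chr15:75108158-75111970, minus strand) encodes the form of the Ly6C antigen that is abundant on myeloid cells. Its normalised counts were 9609, 8412, 8420 and 6630 in BM_1, BM_3, BM_4 and BM_5, and 15.3, 19.4, 12.0 and 20.1 in SI_6, SI_7, SI_10 and SI_11. All BM libraries were high and all SI libraries low, with no overlap and little spread within a tissue. The mean was 494-fold lower in SI (8268 ± 1228 in BM, 16.7 ± 3.79 in SI), and the difference was -8.67 ± 0.22 (95% interval -9.18 to -8.17; limma, adjusted p = 1.81e-07). This was the 11th most negative difference of the 38392 genes.

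The BM cells had been gated as negative for Ly6C protein, and 7131 to 12899 reads of the transcript nevertheless stood in each BM library. Within BM, Ly6c2 stood at 5.22 to 5.69 reads per 100 reads of Mpo and at 13.6 to 14.97 reads per read of Siglecf, so that the highest library was 1.09-fold and 1.10-fold above the lowest. The ratio spread more against Epx, the eosinophil peroxidase (16.7 to 28.6 reads per read, 1.72-fold). It also spread more against Csf1r, a receptor of monocytes and macrophages (37.8 to 59.7, 1.58-fold). The denominators differed in depth, with 136627 to 227513 Mpo reads and 526 to 936 Siglecf reads in the BM libraries. Epx and Csf1r had fewer reads still, so counting error weighs more in their ratios. In SI, Ly6c2 stood at 8.53 to 10.7 reads per 100 Mpo reads and at 0.00402 to 0.00682 reads per Siglecf read. Mpo was 911-fold lower in SI, and the part of neutrophil precursors in the Ly6c2 result was not tested. Monocyte markers could also accompany Ly6c2. They took 0.00973% to 0.0122% of reads in BM and 0.00911% to 0.0117% in SI, ranges that overlapped. Of the 8, 2 were called higher and 1 lower, beside 34.6% and 28.6% of all genes averaging 10 or more reads. Their median difference was -0.76. The most abundant was F13a1 in BM and Csf1r in SI, so overlapping sums do not mean that each marker stayed level.

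Ly6g (chr15:75155240-75159126, plus strand) encodes the antigen by which mouse neutrophils are identified. Its normalised counts were 71.3, 139.6, 76.6 and 80.9 in the BM libraries in the order above, and 1.09, 1.39, 4.38 and 0 in the SI libraries. BM_3 was the highest library and the SI libraries were all near 0, with 1, 1, 4 and 0 reads. A count of 0 in SI_11 allows up to 3.56 normalised counts, for counting error only. The difference was -4.53 ± 0.43 (95% interval -5.50 to -3.56; limma, adjusted p = 7.61e-05), with 92.1 ± 31.9 in BM and 1.71 ± 1.87 in SI. It was the 102nd most negative of all differences. The BM gate excluded Ly6G-stained cells, and the higher values nonetheless stood in BM.

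Ly6c1 (chr15:75044018-75048830, minus strand) encodes the other form of Ly6C, known from endothelial cells as well as from blood cells. Its normalised counts were 10.7, 5.87, 12.4 and 5.58 in BM and 37.1, 6.93, 28.4 and 26.1 in SI. In SI, 3 libraries were above all of BM and SI_7, with 5 reads, lay within the BM range. The difference was 1.10 ± 0.44 and was not called (95% interval before adjustment 0.09 to 2.11; limma, adjusted p = 0.0886). Without SI_7 it was 1.53 with an adjusted p of 0.00631, and it was also called when genes with a mean under 10 reads were left out of the adjustment (limma, adjusted p = 0.0463).

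The 2 copies made up the Ly6c reads in different proportions in the tissues. Of the reads assigned to either gene, Ly6c1 took 0.112%, 0.0697%, 0.148% and 0.0841% in the BM libraries, and 70.8%, 26.3%, 70.3% and 56.4% in the SI libraries. Every SI library was above every BM library, although the SI shares rest on 19 to 48 reads each: the exact Clopper-Pearson 95% interval of SI_7 ran from 9.15% to 51.2% and that of SI_6 from 55.9% to 83.0%. The mean share was 0.103% ± 0.034 in BM and 56.0% ± 20.9 in SI (2-sided exact permutation p = 0.0286, the smallest that 4 against 4 libraries can give, adjusted p = 0.0321 over 9 tests). With the reads of both copies summed, the pair was lower in SI, as Ly6c2 alone was (-7.55 ± 0.25; limma, adjusted p = 4.46e-07). Ly6c2 held nearly all reads of the pair in BM, so the sum follows Ly6c2 and cannot show how reads were confused.

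Ly6e (chr15:74955051-74959905, plus strand) encodes a widely expressed, interferon-inducible family member known for limiting the entry of coronaviruses. It was abundant in both tissues, at 5534, 5183, 4163 and 3852 normalised counts in BM and 4270, 4542, 4185 and 6065 in SI. The ranges overlapped, and SI_11 was the highest library. The difference was 0.02 ± 0.22 with a 95% interval of -0.47 to 0.52 (limma, adjusted p = 0.944). Its sign depended on the scaling: with quantile normalisation Ly6e was lower in SI by a called -0.53 (limma, adjusted p = 0.0453), and with each library centred on its median it was at -0.88 (limma, adjusted p = 0.132). These scalings moved the median difference of all genes from 0.37 to -0.03 and -0.53.

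Ly6a (chr15:74994877-74998031, minus strand) encodes Sca-1. Its normalised counts were 42.1, 84.1, 81.3 and 53.0 in BM and 153.9, 156.7, 82.0 and 186.1 in SI. In SI, 3 libraries were above all of BM, and SI_10 lay between BM_4 and BM_3. The difference was 1.10 ± 0.33 (65.1 ± 20.8 in BM, 145 ± 44.2 in SI; limma, adjusted p = 0.0306). The call was lost on leaving out BM_1, BM_5, SI_6, SI_7 or SI_11, with limma adjusted p between 0.0725 and 0.0856. It was also lost with median centring over all genes, where the difference was 0.20 (limma, adjusted p = 0.757). With centring on the median of genes averaging 10 or more reads, the call stayed, at 1.04 (limma, adjusted p = 0.0354).

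Ly6i (chr15:74979534-74983430, minus strand) encodes an antigen close in sequence to Ly6a. Its normalised counts were 3.06, 1.96, 4.78 and 3.72 in BM and 13.1, 18.03, 25.2 and 24.9 in SI. All SI libraries were above all BM libraries, at low depth in both tissues. The difference was 1.84 ± 0.26 (3.38 ± 1.19 in BM, 20.3 ± 5.82 in SI; limma, adjusted p = 6.70e-04). It fell to 0.94 with median centring over all genes (limma, adjusted p = 0.102) and to 1.01 with quantile normalisation (limma, adjusted p = 0.0688). The call was lost under each of these. With centring on the median of genes averaging 10 or more reads, the call stayed, at 1.78 (limma, adjusted p = 0.00241).

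Ly6a and Ly6c1 are also known from endothelial cells and fibroblasts, and markers of such cells differed between the tissues. Endothelial markers took 0.00352% to 0.00458% of reads in BM and 0.0483% to 0.0574% in SI, with 8 of 10 called higher and 1 lower. Most of these reads were of 1 gene, Pecam1, which is not restricted to endothelium (0.0449% to 0.0553% in SI). The other 9 together took 0.000627% to 0.00137% in BM and 0.00211% to 0.00344% in SI. Fibroblast markers took 0.00314% to 0.00357% in BM and 0.00271% to 0.00631% in SI, with 8 of 10 called higher and 1 lower. Epithelial markers took 0.00135% to 0.00158% in BM and 0.0223% to 0.146% in SI, with 10 of 10 called higher. By library, the epithelial share was 0.146%, 0.0584%, 0.0223% and 0.0236% in SI_6, SI_7, SI_10 and SI_11. Stem and progenitor markers, which accompany Ly6a in the marrow, took 0.0725% to 0.0835% in BM and 0.0253% to 0.0380% in SI. Of these, 5 of 10 were called higher and 3 lower. T cell markers took 0.000545% to 0.000938% in BM and 0.00110% to 0.00173% in SI (3 of 10 called higher, 0 lower). Only 4 of the T cell markers averaged 10 or more reads. Among all genes averaging that many, 34.6% were called higher and 28.6% lower. The part of the cells named here in the Ly6a, Ly6c1 and Ly6i values was not tested.

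Ly6d (chr15:74762056-74763620, minus strand) encodes a marker of early B-lineage progenitors. Its normalised counts were 11.5, 24.8, 7.66 and 19.5 in BM and 2.18, 4.16, 1.09 and 4.74 in SI. BM stood above SI in every library, but the SI values rest on 2, 3, 1 and 4 reads. The difference was -1.61 ± 0.36 (15.9 ± 7.73 in BM, 3.04 ± 1.70 in SI; limma, adjusted p = 0.00837). B and plasma cell markers took 0.00329% to 0.00562% of reads in BM and 0.00378% to 0.0180% in SI, with 3 of 10 called lower and 1, Jchain, higher. These calls stand beside 28.6% lower and 34.6% higher among all genes averaging 10 or more reads. The part of B and plasma cells in the Ly6d result was not tested.

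**Figure D2:**
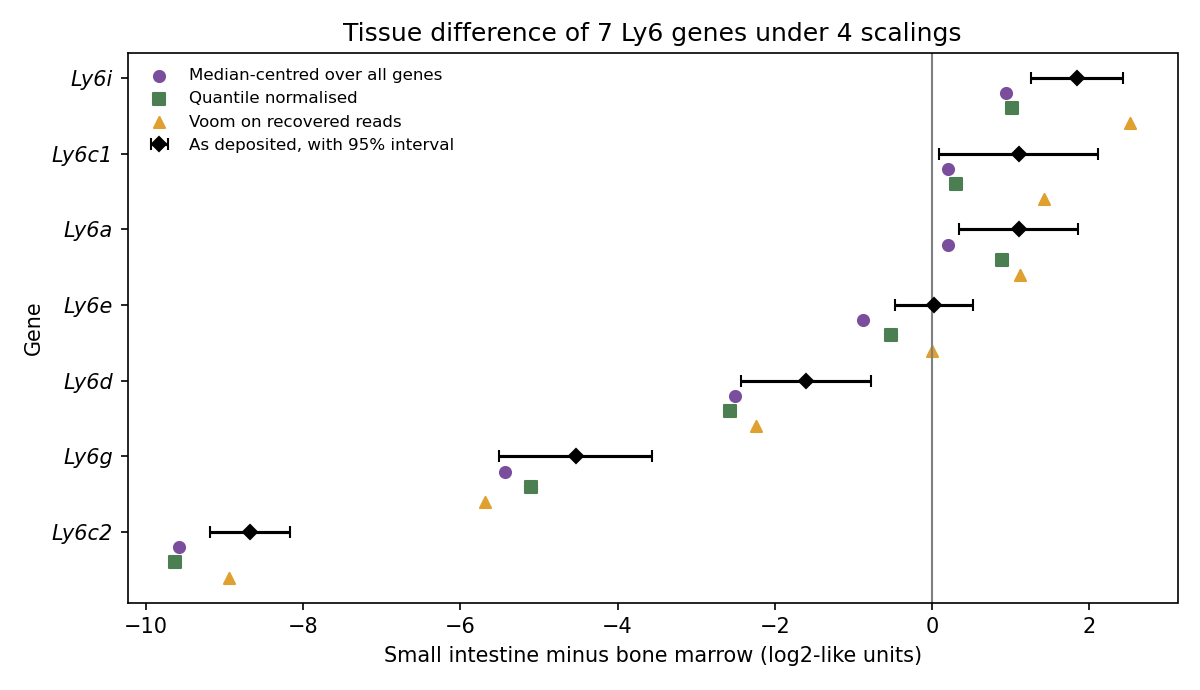
Difference between tissues (SI minus BM, log2-like units, x axis) of the 7 Ly6 genes (y axis), as deposited (black diamonds with 95% intervals) and under 3 other scalings. Ly6c2, Ly6g and Ly6d lie below 0 under all 4 scalings, whereas Ly6e moves between 0.02 and -0.88 and the call of Ly6i is lost at 0.94 and 1.01.

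The composition of the family does not depend on the size factors, since it compares genes within a library. Ly6c2 took 62.9%, 60.7%, 66.0% and 62.3% of the reads of the 7 genes in BM and 0.340%, 0.409%, 0.277% and 0.318% in SI. Ly6e took 36.2%, 37.4%, 32.6% and 36.2% in BM and 95.04%, 95.6%, 96.5% and 95.9% in SI. BM libraries were thus mainly Ly6c2 with Ly6e, and SI libraries almost wholly Ly6e. Counted per kb of exon, the difference of the mean share (SI minus BM) was -67.6 percentage points for Ly6c2 and 60.6 for Ly6e (exact permutation p = 0.0286 for each). The mean share of Ly6a was 0.505% in BM and 2.89% in SI, that of Ly6i 0.0266% and 0.411%, that of Ly6c1 0.0656% and 0.510%, and that of Ly6g 0.708% and 0.0386%. For these 6 genes the shares did not overlap between tissues (2-sided exact permutation p = 0.0286, adjusted p = 0.0321). The shares are not independent of each other, since a lower Ly6c2 level by itself raises the shares of the rest. The share of Ly6d, 0.124% in BM and 0.0591% in SI, did not pass (exact permutation p = 0.171, adjusted 0.171). The summed level of the 7 genes was 13136 ± 1955 normalised counts in BM and 4977 ± 916 in SI (exact permutation p = 0.0286, adjusted 0.0321).

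**Figure D3:**
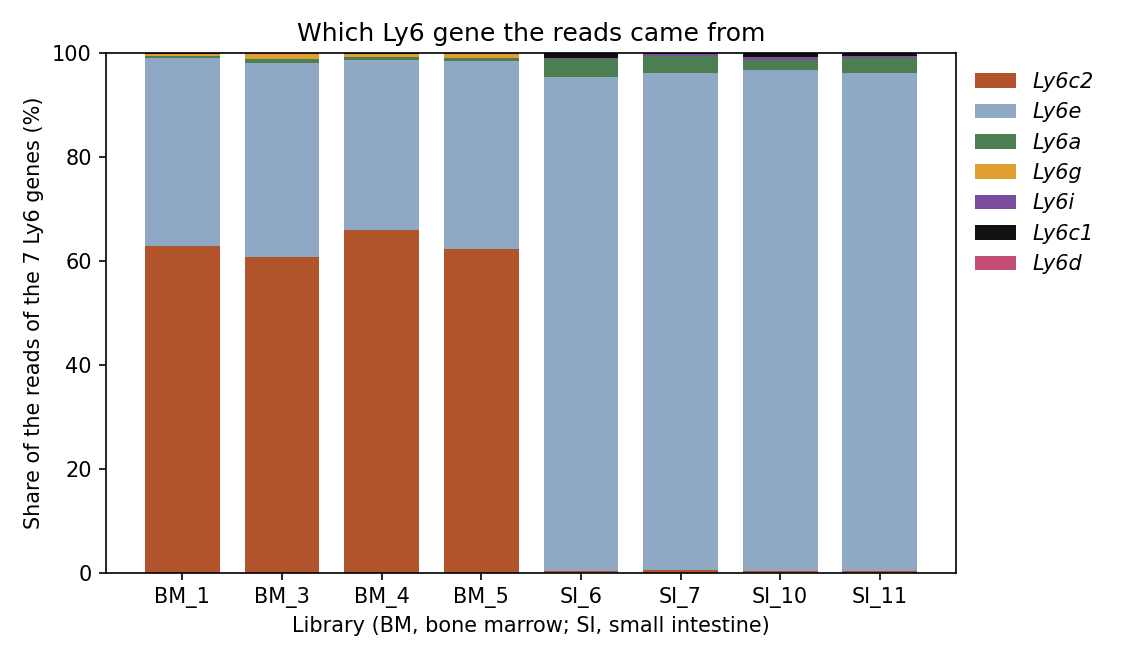
Share of the reads of the 7 Ly6 genes taken by each gene (%, y axis, stacked bars from 0 to 100) in each of the 8 libraries (x axis). Ly6c2 takes 60.7% to 66.0% in the BM libraries and 0.277% to 0.409% in the SI libraries, where Ly6e takes 95.04% to 96.5%.

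Per kb of exon, the genes of a tissue can be ranked. In BM the order of the mean normalised count per kb was Ly6c2 (3017 ± 448), Ly6e (1238 ± 212), Ly6g (97.7 ± 33.9), Ly6a (54.1 ± 17.3), Ly6d (21.3 ± 10.4), Ly6c1 (5.16 ± 2.06) and Ly6i (2.92 ± 1.03). Each gene was above the next in 4 of 4 libraries, and of neighbours in this order only Ly6c1 and Ly6i had overlapping ranges. In SI the order was Ly6e (1259 ± 232), Ly6a (120 ± 36.7), Ly6i (17.6 ± 5.04), Ly6c1 (14.7 ± 7.59), Ly6c2 (6.10 ± 1.38), Ly6d (4.09 ± 2.29) and Ly6g (1.82 ± 1.99). Here Ly6e and Ly6a stood clear, and from Ly6i downwards the ranges of all neighbours overlapped. With the longest transcript as the length in place of all exons, Ly6c1 and Ly6i changed places in SI, and the ranges of Ly6g and Ly6a and of Ly6d and Ly6c1 overlapped in BM. Between libraries, Ly6e varied least in SI (coefficient of variation 18.5%) and Ly6c2 least in BM (14.9%).

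Genes with the most similar profile were sought over all 8 libraries, by Euclidean distance after each gene was centred on its mean. The nearest to Ly6c2 was Nkg7, a membrane protein of cytotoxic granules (distance 0.822; 6750 normalised counts in BM and 15.5 in SI), followed by S100a9 and Chil3, abundant products of neutrophils and their precursors. Ly6g was nearest to H2ac13, Emilin1 and Glt1d1, and Ly6d to Rpp30, Wfdc16 and Txndc15. Ly6e, with little change between tissues, was nearest to Cutc, Pfdn5 and Pdcd2l (distances 0.235 to 0.254). Ly6a was nearest to Nron, Mir6399 and Tesk1, and Ly6i to Ggh, Lrsam1 and Cds2. The genes nearest to Ly6c1, Fam180a, Cdkn2a and Krtap4-7, had 0 reads in BM and at most 2.78 normalised counts in SI, so that their likeness rests on few reads. All points share the same 8 libraries, and the distances mainly reflect the difference between tissues.

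The 7 genes lie on chromosome 15 within 397 kb, between Ly6d at chr15:74762056 and Ly6g at chr15:75159126 (GRCm38). Ly6d is set off by 191 kb, and the other 6 follow each other at gaps of 11.4 to 59.3 kb. Of 17 other genes of the table in this interval, 3 averaged 10 or more reads. Ly6a2, annotated in GENCODE M21 as a transcribed pseudogene, lies between Ly6c2 and Ly6g and was at 906 ± 195 normalised counts in BM and 3.69 ± 2.55 in SI (-7.11 ± 0.33; limma, adjusted p = 2.01e-06). Gm5960, an unprocessed pseudogene between Ly6c1 and Ly6c2, was at 41.0 ± 4.23 and 1.91 ± 2.58 (-3.62 ± 0.50; limma, adjusted p = 6.28e-04). Gm28068, a long noncoding RNA between Ly6a and Ly6c1, was higher in SI (16.2 ± 7.27 in BM, 67.3 ± 13.4 in SI; limma, adjusted p = 0.00265). Among the members and these 3 neighbours, differences were positive from Ly6i to Ly6c1 along the chromosome, though not called for Ly6c1, and negative from Gm5960 to Ly6g. The other 14 genes averaged under 10 reads, 3 of them being called higher (Cyp11b2, Gm8000 and Gm28069) and none lower, beside 12.9% higher and 1.38% lower among all genes under 10 reads. Which of the calls share reads with a copy was not tested beyond the windows given above, where Ly6a2 shared 1.24% of its windows, all with Gm5960.

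**Figure D4:**
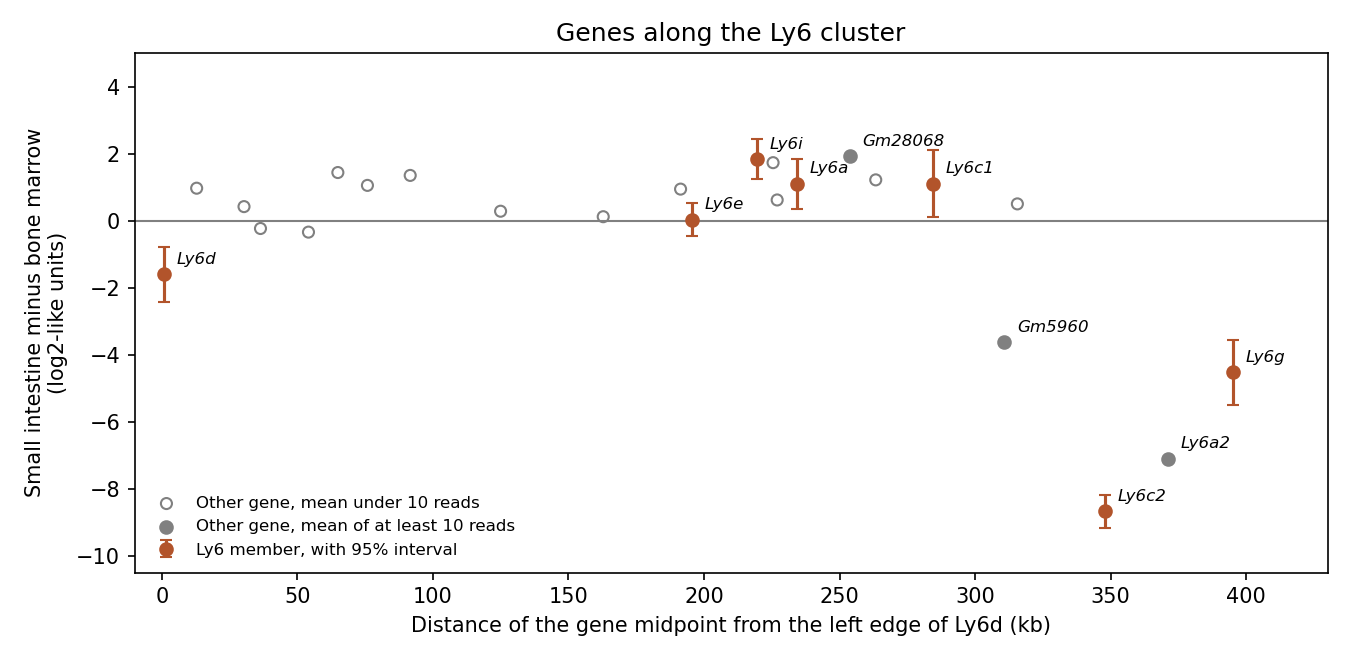
Difference between tissues (SI minus BM, log2-like units, y axis) of the 24 genes of the cluster against the distance of the gene midpoint from the left edge of Ly6d (kb, x axis). Ly6 members are orange with 95% intervals, and other genes are grey, filled where the mean is at least 10 reads. Ly6i, Ly6a, Gm28068 and Ly6c1 lie above 0, and Gm5960, Ly6c2, Ly6a2 and Ly6g lie between -3.62 and -8.67.

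Other genes with the Ly6/uPAR domain were read for comparison. Of 43 such genes in the table, 13 were called higher in SI (30.2%, beside 22.0% of all genes) and 2 lower (4.65%, beside 12.9%), with a median difference of 1.05, but only 8 averaged 10 or more reads. The 13 became 7 without BM_1 and 8 without BM_3, BM_4 or SI_10, and 3 when sparse genes were not tested. Among those with reads in number, Plaur, the urokinase receptor, was higher in SI (475 ± 48.2 in BM, 7115 ± 887 in SI; limma, adjusted p = 2.49e-06). Lypd8, known for keeping bacteria away from the gut epithelium, was at 7.82 ± 4.77 and 6161 ± 5793 (limma, adjusted p = 3.52e-05), with an SI spread nearly as large as its mean. Epithelial markers were higher in SI too, and their part in the Lypd8 value was not tested. Ly6g2 averaged under 10 reads (7.6), with 0 in all BM libraries and 35, 9, 12 and 5 in SI_6, SI_7, SI_10 and SI_11. It stood at 17.4 ± 14.2 normalised counts in SI (limma, adjusted p = 4.07e-04). The 2 that fell were Ly6a2 and Cd177, a neutrophil surface protein (4527 ± 598 in BM, 43.7 ± 35.0 in SI; -6.88 ± 0.50; limma, adjusted p = 1.88e-05). The part of neutrophil precursors in these falls was not tested.

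Genes for making the GPI anchor, on which most Ly6 proteins depend, were read next. Of 29 such genes, each averaging 10 or more reads, 4 were called higher in SI (13.8%) and 10 lower (34.5%), with a median difference of -0.24. Among all 16215 genes with that many reads, 34.6% were called higher and 28.6% lower. Piga, which acts in the first step of anchor synthesis, fell (1339 ± 51.9 in BM, 594 ± 202 in SI; -1.23 ± 0.27; limma, adjusted p = 0.00682), as did Pigw (-1.48 ± 0.39) and Dpm3 (-1.12 ± 0.21). Pgap1, which remodels the finished anchor, rose by 2.83 ± 0.51 (limma, adjusted p = 0.00275), Pigb by 0.94 ± 0.24 and Dpm1 by 0.82 ± 0.20. Of the transamidase subunits that attach the anchor to the protein, Pigt fell (-0.63 ± 0.19; limma, adjusted p = 0.0299) and Pigs was at -0.11 ± 0.19 (limma, adjusted p = 0.656). The call of Pigt was lost without BM_1 (limma, adjusted p = 0.0777) or BM_4 (0.0702), that of Pigw without BM_3 (0.0523), and those of Pigb and Dpm1 with median centring, at 0.04 and -0.08. Pigb also lost its call with centring on genes of 10 or more reads, though its difference stayed at 0.87 (limma, adjusted p = 0.0518).

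Interferon-induced genes were read beside Ly6e and Ly6a. Of 28, each averaging 10 or more reads, 14 were called higher in SI and 3 lower (10.7%), with a median difference of 0.98. These counts stand beside the 34.6% higher and 28.6% lower among all genes with that many reads. The largest rises were Cxcl10, a chemokine (5.30 ± 0.28; 58.0 ± 20.7 in BM, 2331 ± 308 in SI), Isg15 (3.35 ± 0.36) and Oasl1 (3.21 ± 0.27), with limma adjusted p of at most 1.73e-04. Ifit2 (-4.03 ± 0.29), Gbp3 (-1.57 ± 0.36) and Irgm1 (-0.93 ± 0.25) fell, the last without a call when BM_3 was left out (limma, adjusted p = 0.0503). In the same libraries Ly6e was at 0.02 ± 0.22 and Ly6a at 1.10 ± 0.33.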

How the data were processed

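RNA-seq libraries of sorted eosinophils (4 from bone marrow, 4 from small intestine) were prepared after cDNA amplification and sequenced as single-end reads. The authors mapped these to GRCm38 with Ensembl release 86 annotation in a public pipeline and deposited log2-like variance-stabilised values from DESeq2, with R 4.0.3 named in the processing notes of the submitters. Its aligner and strand setting, and how multiply matching reads were handled were not given in the sources used here. Column names gave the tissue of a library but not the single sample.

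The lowest deposited value, 0.92971568, allowed the transformation to be inverted. Multiplied by a size factor per library (0.721 to 1.53), the inverted values came out as whole reads within 0.05 for 100% of genes, and none deviated by more than 0.00624. Intervals and floors (3 counts) cover counting error only. Deposited values were compared with limma 3.58.1 in R 4.3.3 (constant prior, no covariate, no filter), with Benjamini-Hochberg adjustment over 38392 genes and a threshold of 0.05. The authors fitted DESeq2 to their counts, and limma was used instead because the deposited unit is log2. Single values per library were compared by 2-sided exact permutation tests, with 70 possible assignments. Python 3.11.15 was used with pandas 2.3.3, numpy 2.4.6, matplotlib 3.10.9 and scipy 1.17.1. The fit was tested on simulated data. Alternatives were an intensity trend, a filter at a mean of 10 reads, median centring, quantile normalisation, voom on the recovered reads, pseudocounts of 1 and 5, leaving out each library, and summing Ly6c1 with Ly6c2. Centring on the median of genes averaging 10 or more reads was added after seeing the data.

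The genes and lists were chosen with earlier results of these data known. Named genes were all 7 members, the 3 largest called rises and falls and the 2 most abundant genes of each of 3 lists, the 3 nearest profiles to each member, genes of the chromosomal interval, the most abundant marker of each list in each tissue where it bore on a result, and Mpo and Siglecf. The called eosinophil markers and Csf1r were named after their values were seen. Coordinates came from GENCODE M21, which held all 38392 identifiers.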

Additional observations from a re-analysis of the deposited data

How the results depend on the processing

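Ly6c2, Ly6g and Ly6d were called lower under all 16 alternatives. Of 114 values of the 7 Ly6 genes under alternatives, 96 kept direction and call, 8 lost the call, 2 gained it and 8 reversed; of 335 values of the 21 other named genes, these numbers were 328, 6, 0 and 1. Members called higher numbered 2 as deposited and 1 to 2 on leaving out a library. They numbered 0 with median centring over all genes, 2 with centring on better-covered genes and 1 with quantile normalisation. Other Ly6/uPAR domain genes called higher numbered 13 as deposited, 3 with the filter at 10 reads, 6 with median centring, 8 with quantile normalisation and 7 to 12 on leaving out a library, and those called lower 7 in place of 2 with median centring. Median centring also gave 1 GPI anchor gene higher and 16 lower (4 and 10 as deposited), and 9 interferon-induced genes higher and 6 lower (14 and 3 as deposited; 5 lower with quantile normalisation). Ly6e reversed to -0.88 with median centring, -0.53 with quantile normalisation, -0.0037 with voom, -0.040 with centring on better-covered genes, and ranged from -0.10 to 0.11 on leaving out a library. Ly6c1 was counted as reversed at -7.55 when summed with Ly6c2, a sum made up mainly of Ly6c2 reads in BM. Dpm1 reversed to -0.076 with median centring. Median centring moved the median difference of all genes from 0.37 to -0.53, while centring on genes averaging 10 or more reads moved it to 0.31. The cause of these changes was not tested.

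With a library left out, 4 against 3 cannot give an exact p below 0.0571, so the summed level (difference -8990 to -7443 normalised counts) and the shares of Ly6c2 (-63.4 to -61.6 percentage points), Ly6e (59.1 to 60.8) and Ly6c1 within the Ly6c pair (50.9 to 65.7) lost their call by design. With the longest transcript as the length, 12 of 14 positions in the order per kb were the same, and Ly6c1 and Ly6i changed places in SI. No paired analysis was possible because bone marrow and small intestine libraries shared no replicate numbers. Depth limits chiefly Ly6g and Ly6d in SI, which rest on 0 to 4 reads per library, and Ly6i and Ly6c1.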
